A study of Mus musculus with 14 samples.

Results

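The unfolded protein response and the integrated stress response are described here by 35 genes, chosen by symbol as sensors, transcription factors and targets of the Atf4, Xbp1 and Atf6 branches, out of 55335 genes in the files. The files are single-cell RNA counts of mouse whole spinal cord at P115-120 days, all cell types, in 14 libraries of 4 groups. The 3 SOD1G93A libraries are from the strain B6SJL-Tg(SOD1*G93A)1Gur/J, which carries a human SOD1 transgene with the G93A change and is a model of amyotrophic lateral sclerosis, and the 3 libraries without it are labelled nTg for strain and group. The 4 Clec7a-KO libraries are from B6.129S6-Clec7atm1Gdb/J mice, which lack Clec7a, the receptor Dectin-1, and the 4 SOD1G93A/Clec7a-KO libraries combine both. The SOD1G93A and Clec7a-KO strain names give different backgrounds, so background and genotype cannot be told apart, and the Clec7a-KO mice lack the gene in every cell. The labels do not say whether a library pooled animals or came from 1, so p-values measure the spread between these libraries, which may be technical. Cells were released enzymatically at 37 °C and passed over myelin-removal beads before droplet capture, and RNA was counted from its 3′ end as unique molecular identifiers (UMIs, 1 per captured molecule).

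The unfolded protein response is started by sensors in the membrane of the endoplasmic reticulum when unfolded proteins accumulate: Ern1 splices the mRNA of the transcription factor Xbp1, Atf6 is cut to release a transcription factor, and the kinase Eif2ak3 phosphorylates the translation factor eIF2alpha. The last step is shared with other kinases that sense amino acid shortage, heme shortage or viral RNA, and this wider arm, the integrated stress response, lowers translation but favours translation of Atf4. Atf4 drives genes of amino acid uptake and synthesis, the Xbp1 and Atf6 branches drive chaperones, disulfide isomerases and the degradation machinery of the endoplasmic reticulum, and stress of this organelle has long been studied in motor neurons of SOD1 mutant mice. Gene counts do not separate spliced from unspliced Xbp1 mRNA, and they measure Atf4 as mRNA only, so no sensor activity was measured.

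Of 108892 barcodes, 89225 were kept as single cells, 2554 to 10220 per library, from 28819852 to 141204910 UMIs per library. Clustering gave 30 clusters, of which 10 (48555 cells, 948 to 7072 per library) were microglia-like by their markers, called microglia below. Endothelial-like (11579 cells), ependymal-like (7665), astrocyte-like (5918), oligodendrocyte precursor-like (3912) and mural-like cells (1722) were also compared between groups, and all class names below are rebuilt from markers, so they may differ from the study's own. The 12 microglial markers used for naming summed to 29133 to 32321 CPM (counts per 1e6 UMIs) in nTg microglia and 30018 to 38360.4 in SOD1G93A microglia. In microglia Clec7a was at 882 to 1033 CPM in SOD1G93A and 28.8 to 84.0 in nTg, against 2.05 to 3.82 in SOD1G93A/Clec7a-KO and 0.826 to 2.60 in Clec7a-KO. Pairs of libraries shared 2 to 44 cell barcodes. The libraries numbered 13, 15 and 16 by the submitters (SOD1G93A/Clec7a-KO 3 and 4 and Clec7a-KO 4) stood apart within their groups, with scores of 0.35, 0.43 and 0.49 on the first component of the microglial deviations from the group means against -0.41 and -0.38 for SOD1G93A/Clec7a-KO 1 and 2. Both clusters below were nearest to microglia and stayed unnamed. The first, of 1692 cells led by Igkc and H2-Aa, had a mean share (± SD over libraries) of 0.185 ± 0.0913% in nTg, 0.365 ± 0.207% in Clec7a-KO, 2.01 ± 0.274% in SOD1G93A and 3.91 ± 1.01% in SOD1G93A/Clec7a-KO. The other, of 1484 cells led by the haemoglobin genes Hba-a2 and Hbb-bt, had 3.80 ± 2.15%, 3.03 ± 1.72%, 0.568 ± 0.470% and 0.289 ± 0.176%. With both added to microglia, 24 and 27 members were called in SOD1G93A against nTg and in SOD1G93A/Clec7a-KO against Clec7a-KO, in place of 24 and 28 by the test below.

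The promoters of 11 members hold short elements that these branches are known to read, and the stretches below show them in the 250 bases before each RefSeq start. Those of Hspa5 and Asns lie inside the gene as GENCODE vM21 annotates it, which puts the start farther upstream. The endoplasmic reticulum stress element (ERSE, the letters CCAAT, 9 bases and CCACG), which Atf6 reads together with the factor NF-Y, was found in 7 of the 32 members with a promoter in the RefSeq table (21.9%), against 0.130% of 27025 genes. The element that Atf4 reads with its partners (CARE, TGATGNAA) was found in 4 members (12.5%, against 3.91% of all genes), ERSE-II (ATTGGNCCACG, which can overlap an ERSE's last letters) in Herpud1 alone (3.12% against 0.0370%), and the Xbp1 element UPRE (TGACGTGG) in none (against 0.603%). The window searched was the 250 bases before each start, on both strands, and a match is a description of letters, not a bound site. The sequences are RefSeq's on GRCm38.p6, written 5′ to 3′ on the gene's strand, with the fixed letters of the element in capitals in either orientation. The 7 members with an ERSE encode chaperones and isomerases: Hspa5 (chr2:34772020-34772048, plus strand), Hsp90b1 (chr10:86705513-86705676, minus strand), Calr (chr8:84847055-84847113, minus strand), Canx (chr11:50325780-50325838, minus strand), Pdia6 (chr12:17266471-17266529, plus strand), Dnajc3 (chr14:118937807-118937865, plus strand) and Creld2 (chr15:88819500-88819558, plus strand). The members with CARE are Asns (chr6:7693220-7693237, minus strand), Slc7a11 (chr3:50443633-50443699, minus strand, with 2 copies facing each other), Chac1 (chr2:119351029-119351076, plus strand) and Herpud1 (chr8:94386297-94386407, plus strand), which holds CARE and then ERSE-II.
Hspa5: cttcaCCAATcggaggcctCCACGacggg
Hsp90b1: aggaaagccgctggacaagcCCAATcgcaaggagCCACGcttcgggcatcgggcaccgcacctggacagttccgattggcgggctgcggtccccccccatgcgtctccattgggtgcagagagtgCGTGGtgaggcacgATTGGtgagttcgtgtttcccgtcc
Calr: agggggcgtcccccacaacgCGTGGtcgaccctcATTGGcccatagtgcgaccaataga
Canx: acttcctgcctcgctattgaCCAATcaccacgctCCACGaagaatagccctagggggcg
Pdia6: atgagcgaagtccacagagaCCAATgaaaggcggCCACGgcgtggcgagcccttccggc
Dnajc3: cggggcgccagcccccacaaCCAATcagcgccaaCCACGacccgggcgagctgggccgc
Creld2: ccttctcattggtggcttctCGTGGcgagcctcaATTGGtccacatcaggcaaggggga
Asns: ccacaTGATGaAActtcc
Slc7a11: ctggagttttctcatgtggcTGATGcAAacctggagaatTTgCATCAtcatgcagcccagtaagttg
Chac1: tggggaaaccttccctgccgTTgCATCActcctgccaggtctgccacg
Herpud1: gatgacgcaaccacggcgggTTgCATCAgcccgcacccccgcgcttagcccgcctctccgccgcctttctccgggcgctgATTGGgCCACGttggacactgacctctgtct

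Hsp90b1 holds the ERSE 2 times, in both orientations, and Calr and Creld2 hold it in the opposite orientation. All 7 members with an ERSE had more mRNA in SOD1G93A than in nTg microglia by the test below, and 6 of them in SOD1G93A/Clec7a-KO than in Clec7a-KO microglia. This stands beside 22 and 22 of all 35 members and 20.2% and 26.0% of all genes called higher, so nothing is read from it about the element. Of the 4 members with CARE, the same holds for 3 in each comparison (Asns, Slc7a11 and Chac1), and not for Herpud1. Members whose window holds none of these letters were called higher as well, such as Psat1 and Sdf2l1.

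For 10 of the 35 members the class with the highest mean stood beyond the SDs of the next class, and 5 of 10 classes led for no member by that measure. Endothelial-like cells held the most mRNA of the amino acid transporter Slc7a5 (794 ± 182 CPM, mean ± SD over libraries, against 52.9 ± 10.8 in astrocyte-like cells, the next class) and of its partner chain Slc3a2 (816 ± 97.6 against 497 ± 106). They also led for Trib3, a pseudokinase that restrains Atf4 (16.6 ± 6.66 CPM, against 2.81 ± 3.46 in T or NK-like cells). Ependymal-like cells led for the co-chaperone Dnajc3 (643 ± 69.6 CPM, against 206 ± 35.5 in endothelial-like cells), for Creld2 (106 ± 14.3 against 54.5 ± 12.7 in oligodendrocyte precursor-like cells) and for the isomerase Pdia4 (243 ± 74.3 against 104 ± 29.4). Astrocyte-like cells led for Phgdh, the first enzyme of serine synthesis (217 ± 46.5 CPM, against 100.2 ± 32.2 in T or NK-like cells), and oligodendrocyte precursor-like cells for Psat1, the next enzyme (113 ± 24.1 against 72.3 ± 13.3 in astrocyte-like cells) and the co-chaperone Dnajb11 (149 ± 23.7 against 114 ± 8.28 in endothelial-like cells). The glutamine-dependent enzyme Asns was highest in neuron-like cells (82.1 ± 15.5 CPM), followed within the SDs by cerebrospinal fluid contacting neuron-like cells (59.2 ± 17.0). These levels are relative to all UMIs of a class, and they compare a gene between classes, not genes with each other. A library entered a class only with at least 20 of its cells, so the classes draw on different libraries. T or NK-like cells had no nTg library (3, 18 and 1 cells). Cerebrospinal fluid contacting neuron-like cells had no SOD1G93A library (0, 18 and 8 cells).

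Microglia-like cells had the highest mean for 10 of the 35 members, among them Atf4, Xbp1, Hspa5, Sdf2l1 and Herpud1, but the next class lay within the SDs for all of these 10 but the degradation factor Edem1 (157 ± 11.9 CPM, against 86.4 ± 33.3 in T or NK-like cells). For Hspa5 the level was 2109 ± 292 CPM in microglia-like cells and 1796 ± 384 in border-associated macrophage-like cells, while endothelial-like cells were lowest at 438 ± 51.9. For Atf4 it was 286 ± 144 CPM in microglia-like and 205 ± 57.8 in macrophage-like cells, and 49.0 ± 16.2 in ependymal-like cells, the lowest. The wide SD of Slc7a11 in microglia-like cells (87.2 ± 84.0 CPM, against 89.7 ± 38.4 in astrocyte-like cells) holds the difference between groups described below. In droplets, RNA set free from abundant cells enters every class, so low levels can be such background.

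**Figure D1:**
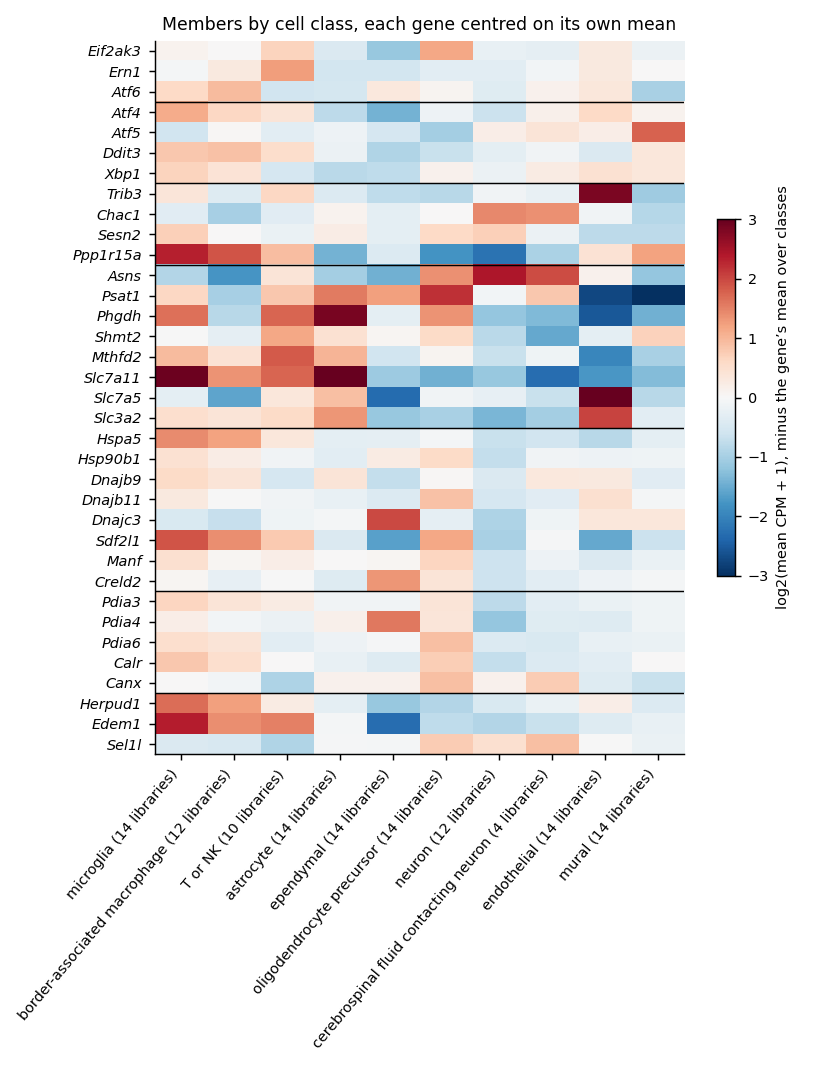
Mean level of each member (rows, ordered by role) in each named cell class (columns), as the colour scale's log2 of CPM plus 1 centred on the gene's own mean over classes. Slc7a5 and Slc3a2 stand out in endothelial-like cells, Dnajc3, Creld2 and Pdia4 in ependymal-like cells, and Edem1 in microglia-like cells.

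In microglia-like cells the transgene went with more mRNA of 22 of the 35 members and less of 2 (SOD1G93A against nTg), and with more of 22 and less of 6 on the Clec7a-KO background (SOD1G93A/Clec7a-KO against Clec7a-KO). Of 8 genes of amino acid supply 6 and 7 rose, of 8 chaperones and co-chaperones of the endoplasmic reticulum 7 and 6 rose and 1 fell each time, and Atf4 itself fell. A sum over a class cannot tell a change in its mix of cells from a change in each cell. Calls are edgeR's quasi-likelihood test on UMIs summed per library, with the p adjusted over 16460 genes under 0.05. Of those genes, 20.2% were called higher and 13.4% lower in the first comparison, and 26.0% and 21.2% in the second. The members' median log2 fold change was 0.83 and 0.54, against 0.01 and 0.00 over all genes tested. Of the 16460 genes, 4867 were higher and 4092 lower without overlap of groups in the first comparison, and 3521 and 2544 in the second. Lack of overlap is thus common, and below it only describes a member. The comparisons share no library, but they come from the same fit with a shared estimate of the spread, so they are not independent tests. In both, 21 members were called higher, which is 95.5% of each list of 22. The share of all genes called higher in both was not computed, so this overlap is not judged. Without the between-library scaling (TMM), the median of all genes moved to -0.45 and -0.51 and the calls to 15 members higher and 8 lower, and to 10 and 10, so that 20.9% and 19.9% of all calls were higher, against 60.1% and 55.0% with it. Without TMM the log2 fold changes of Slc3a2, Canx, Edem1 and Sel1l in the second comparison were -0.18, -0.18, -0.12 and -0.01, and no other call turned its sign there.

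Of the 3 sensors, 0 were called in SOD1G93A and 1, Eif2ak3, was lower on the Clec7a-KO background. Eif2ak3, the kinase also called PERK, was at 10.5, 13.1 and 13.4 CPM in the SOD1G93A libraries and 13.4, 12.1 and 14.1 in nTg, which overlap, and at 11.6, 9.14, 10.5 and 12.2 in SOD1G93A/Clec7a-KO and 12.9, 18.5, 11.6 and 14.5 in Clec7a-KO, which overlap too. Its log2 fold change was -0.10 ± 0.18 (standard error; adjusted p = 0.706) and -0.41 ± 0.16 (adjusted p = 0.0413). The second call of Eif2ak3 was lost without SOD1G93A 2 or 3, SOD1G93A/Clec7a-KO 2, nTg 1, 2 or 3 or Clec7a-KO 2 or 4 (adjusted p = 0.0541 to 0.163), the log2 fold change being -0.27 without Clec7a-KO 2. Ern1, the endonuclease that splices Xbp1 mRNA, was at 8.53 ± 0.837 CPM in SOD1G93A and 10.1 ± 1.595 in nTg (mean ± SD, n = 3 each), and at 6.07 ± 1.33 in SOD1G93A/Clec7a-KO and 7.84 ± 2.03 in Clec7a-KO (n = 4 each). It was called in neither comparison (log2 fold change -0.24 ± 0.23 and -0.37 ± 0.20, adjusted p = 0.458 and 0.151), though without Clec7a-KO 4 the second reached an adjusted p of 0.0242. Atf6, the membrane-bound transcription factor, was called in neither (log2 fold change 0.20 ± 0.22 and -0.17 ± 0.19). Its libraries split by number rather than by group: 48.3, 44.0, 29.3 and 28.4 CPM in SOD1G93A/Clec7a-KO 1 to 4 and 43.5, 45.2, 48.5 and 31.5 in Clec7a-KO 1 to 4, so that the libraries numbered 13, 15 and 16 hold the 3 lowest values.

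Among the 4 transcription factors, Atf4 fell and Atf5 rose. Atf4 mRNA was at 225, 225 and 203 CPM in SOD1G93A and 354, 418 and 317 in nTg. Atf4 was at 182, 189.8, 155 and 143 in SOD1G93A/Clec7a-KO and 323, 412, 354 and 238 in Clec7a-KO. All 7 transgenic libraries lay below every one of the other 7. The log2 fold change was -0.73 ± 0.19 (adjusted p = 0.00919; 0.0502 without nTg 2) and -0.99 ± 0.17 (adjusted p = 2.78e-04). Atf5, a relative of Atf4 whose translation is also favoured when eIF2alpha is phosphorylated, was at 36.6, 34.2 and 30.8 CPM in SOD1G93A and 10.2, 8.95 and 9.39 in nTg. Atf5 was at 31.8, 39.7, 34.6 and 34.2 in SOD1G93A/Clec7a-KO and 10.6, 8.70, 9.56 and 13.3 in Clec7a-KO. The transgenic libraries stood 3.55 and 3.35 times above the others with no overlap. Atf5 had a log2 fold change of 1.83 ± 0.16 and 1.74 ± 0.14 (adjusted p = 1.49e-06 and 2.83e-07). Ddit3, the factor CHOP of the later and pro-apoptotic phase, was at 98.1, 90.6 and 78.2 CPM in SOD1G93A and 121, 151 and 139 in nTg, and at 66.4, 117, 53.2 and 49.2 and 123, 153, 135 and 78.1 on the Clec7a-KO background. The first groups do not overlap, the second do, because SOD1G93A/Clec7a-KO 2 is high and Clec7a-KO 4 low. The log2 fold change of Ddit3 was -0.62 ± 0.29 (adjusted p = 0.115, and 0.0288 without SOD1G93A/Clec7a-KO 2) and -0.78 ± 0.25 (adjusted p = 0.0213); without SOD1G93A/Clec7a-KO 2 the second was -1.19, and its call was lost without SOD1G93A/Clec7a-KO 3 or Clec7a-KO 2 or 3 (adjusted p = 0.0514 to 0.0680). Xbp1 was called in neither comparison, at 169 ± 25.6 CPM in SOD1G93A and 188 ± 12.5 in nTg (n = 3 each) and at 166 ± 34.2 and 198 ± 24.9 (n = 4 each), with a log2 fold change of -0.15 ± 0.18 and -0.26 ± 0.16 (adjusted p = 0.547 and 0.201).

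The 4 feedback and stress targets of Atf4 split. Trib3, a pseudokinase that restrains Atf4, rose from a few molecules per library: 20, 13 and 16 UMIs in nTg and 39, 5, 8 and 15 in Clec7a-KO, against 216, 270 and 275 in SOD1G93A and 243, 262, 213 and 82 in SOD1G93A/Clec7a-KO. As a share of the library this is 4.09, 3.32 and 3.64 CPM in SOD1G93A and 0.631, 0.705 and 1.26 in nTg, and 3.42, 4.71, 4.98 and 4.97 against 1.19, 0.183, 0.517 and 1.17, without overlap. Trib3 had a log2 fold change of 2.15 ± 0.46 and 2.57 ± 0.40 (adjusted p = 0.00246 and 1.35e-04). Chac1, which breaks down glutathione, had 75, 56 and 58 UMIs in SOD1G93A and 62, 79, 57 and 18 in SOD1G93A/Clec7a-KO against 6, 3 and 7 in nTg and 7, 2, 1 and 3 in Clec7a-KO, and was called higher in both. Chac1 had a log2 fold change of 1.80 ± 0.50 and 2.99 ± 0.47 (adjusted p = 0.0134 and 1.56e-04). The first of these calls was lost without SOD1G93A 1 or nTg 1 or 2 (adjusted p = 0.0617 to 0.0757), and with 1 to 7 UMIs in a control library its fold depends on the test's prior. Chac1 passed the filter on low counts through the transgenic libraries, where it is high. Its calls are therefore weak, though it counts among the 21 members called higher in both comparisons. Sesn2, a leucine sensor that restrains growth signalling, was called in neither comparison (14.3 ± 1.08 CPM against 13.2 ± 1.91, and 12.3 ± 1.49 against 9.13 ± 2.61, adjusted p = 0.709 and 0.0743). Ppp1r15a, the subunit GADD34 that has eIF2alpha dephosphorylated, was lower in the second comparison only: 624 ± 149 CPM in SOD1G93A against 827 ± 49.0 in nTg (log2 fold change -0.41 ± 0.34, adjusted p = 0.374), and 574 ± 244 against 987 ± 386 (log2 fold change -0.78 ± 0.29, adjusted p = 0.0407). That call was lost without SOD1G93A 3, SOD1G93A/Clec7a-KO 1 or 2, nTg 1, 2 or 3 or Clec7a-KO 2 or 4 (adjusted p = 0.0526 to 0.152), with a log2 fold change of -0.47 without Clec7a-KO 4. Ppp1r15a is also an early response gene of warm dissociation, whose values are given below.

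Of the 8 genes of amino acid supply, 6 rose in SOD1G93A and 7 in SOD1G93A/Clec7a-KO, and none fell. Asns, which makes asparagine, was at 16.8, 13.1 and 13.8 CPM in SOD1G93A and 1.51, 1.19 and 2.05 in nTg. Asns was at 14.9, 12.4, 12.9 and 17.2 in SOD1G93A/Clec7a-KO and 2.48, 2.96, 1.49 and 2.65 in Clec7a-KO. No transgenic library was below 12.4 CPM and no other above 2.96. Asns had a log2 fold change of 3.22 ± 0.25 and 2.57 ± 0.21 (adjusted p = 7.03e-07 and 4.27e-07). Slc7a11, the cystine importer of system xc-, which exports glutamate in exchange, was at 127, 231 and 203 CPM in SOD1G93A and 27.0, 7.22 and 18.9 in nTg. Slc7a11 was at 74.4, 111, 229 and 330.4 in SOD1G93A/Clec7a-KO and 11.7, 16.01, 11.9 and 21.5 in Clec7a-KO. The groups do not overlap, but SOD1G93A/Clec7a-KO 4 is the highest and SOD1G93A/Clec7a-KO 1 the lowest of a widely spread group. Slc7a11 had a log2 fold change of 3.39 ± 0.55 and 3.61 ± 0.48 (adjusted p = 3.4e-04 and 3.72e-05). Psat1, of serine synthesis, was at 74.5, 65.6 and 73.7 CPM in SOD1G93A and 11.8, 5.26 and 10.1 in nTg. Psat1 was at 90.3, 70.5, 81.7 and 76.5 in SOD1G93A/Clec7a-KO and 7.65, 7.39, 7.11 and 11.7 in Clec7a-KO, so that the lowest transgenic library was far above the highest other one. Psat1 had a log2 fold change of 2.97 ± 0.26 and 3.25 ± 0.23 (adjusted p = 1.51e-06 and 9.77e-08). Its upstream enzyme Phgdh rose less, to 120.3 ± 27.2 CPM from 76.8 ± 7.79 in nTg and to 115.23 ± 11.4 from 74.1 ± 6.05 in Clec7a-KO. Phgdh had a log2 fold change of 0.65 ± 0.16 and 0.64 ± 0.14 (adjusted p = 0.00674 and 0.00195). The first call of Phgdh was lost without SOD1G93A 1 (adjusted p = 0.0615), where the log2 fold change was 0.39.

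Both members of mitochondrial one-carbon metabolism rose. Mthfd2 was at 54.3, 50.4 and 49.1 CPM in SOD1G93A and 18.4, 20.3 and 20.0 in nTg. Mthfd2 was at 48.5, 61.9, 64.3 and 62.4 in SOD1G93A/Clec7a-KO and 26.6, 15.3, 17.6 and 25.6 in Clec7a-KO, with no overlap. Mthfd2 had a log2 fold change of 1.39 ± 0.19 and 1.48 ± 0.17 (adjusted p = 9.9e-05 and 8.49e-06). Shmt2, which feeds it with serine's carbon, was at 20.1, 14.6 and 14.8 CPM in SOD1G93A and 7.60, 7.43 and 8.92 in nTg. Shmt2 was at 18.3, 23.7, 28.7 and 28.5 in SOD1G93A/Clec7a-KO and 10.7, 7.68, 9.43 and 18.5 in Clec7a-KO. Clec7a-KO 4 lies just above SOD1G93A/Clec7a-KO 1, so the second pair of groups overlaps. Shmt2 had a log2 fold change of 1.05 ± 0.27 and 1.11 ± 0.24 (adjusted p = 0.00898 and 0.00163). Of the transporter chains, the heavy chain Slc3a2 was at 317 ± 23.3 CPM against 249 ± 33.8 (adjusted p = 0.0780) in the first comparison and was called in the second, at 324 ± 21.6 against 255 ± 25.2 (log2 fold change 0.35 ± 0.13, adjusted p = 0.0354). This call of Slc3a2 was lost without SOD1G93A 1, SOD1G93A/Clec7a-KO 2, 3 or 4 or Clec7a-KO 2, 3 or 4 (adjusted p = 0.0604 to 0.186). The leucine carrier Slc7a5 was called in neither (log2 fold change -0.11 ± 0.38 and -0.31 ± 0.33), and 1 library, Clec7a-KO 4 at 50.7 CPM, stood above the other 3 of its group, at 20.6, 20.3 and 17.8.

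**Figure D2:**
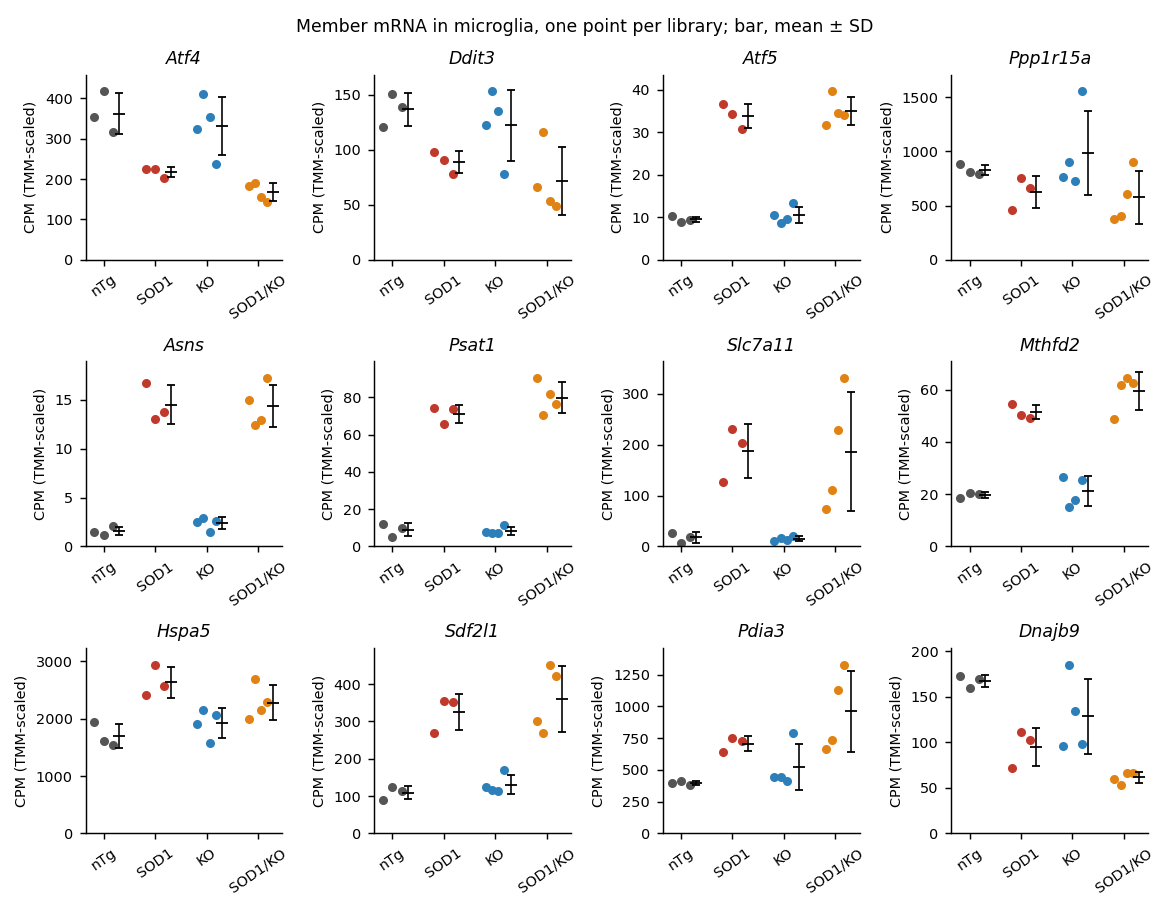
Level of 12 members in microglia-like cells, 1 point per library, in CPM on TMM's scale (vertical axis, from 0), with the mean and SD of each group; SOD1 stands for SOD1G93A and KO for Clec7a-KO. Asns, Slc7a11, Psat1 and Atf5 show the transgenic libraries above all others, and Atf4 shows them below.

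The plot of 12 members by library shows these steps: Asns and Psat1 are low in both control groups, and the groups with and without Clec7a stand side by side.

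Of the 8 chaperones and co-chaperones, 7 rose and 1 fell in SOD1G93A, and 6 rose and 1 fell on the Clec7a-KO background. The steepest was Sdf2l1, a partner of the co-chaperone Dnajb11, at 269.7, 355 and 353 CPM in SOD1G93A and 89.3, 124 and 113 in nTg. Sdf2l1 was at 299.9, 269.5, 451 and 421 in SOD1G93A/Clec7a-KO and 124, 116, 114.63 and 169 in Clec7a-KO. No library of a control group reached a transgenic one. Sdf2l1 had a log2 fold change of 1.58 ± 0.23 and 1.46 ± 0.20 (adjusted p = 1.42e-04 and 4.1e-05). Creld2, a secreted stress protein with its ERSE shown above, was at 47.0, 58.1 and 60.5 CPM in SOD1G93A and 22.4, 30.1 and 21.6 in nTg. Creld2 was at 45.6, 65.5, 74.5 and 89.0 in SOD1G93A/Clec7a-KO and 25.9, 30.5, 27.1 and 42.9 in Clec7a-KO, the last group again highest in library 4 but without overlap. Creld2 had a log2 fold change of 1.16 ± 0.24 and 1.12 ± 0.21 (adjusted p = 0.00205 and 5.59e-04). Manf, a secreted factor that binds Hspa5, was at 293, 406 and 379 CPM in SOD1G93A and 196, 214 and 169 in nTg (log2 fold change 0.89 ± 0.16, adjusted p = 7.03e-04), and at 314 ± 14.3 against 219 ± 25.9 on the Clec7a-KO background (log2 fold change 0.52 ± 0.14, adjusted p = 0.00683). Hsp90b1, the organelle's Hsp90, rose to 1112 ± 158 from 599 ± 52.5 CPM and to 1082 ± 93.4 from 705 ± 66.3 (log2 fold change 0.89 ± 0.16 and 0.62 ± 0.14), and the co-chaperones Dnajb11 (log2 fold change 0.88 ± 0.13 and 0.73 ± 0.12) and Dnajc3 (0.80 ± 0.11 and 0.54 ± 0.10) rose without overlap of groups.

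Hspa5, the master chaperone BiP that holds the sensors inactive, was called in the first comparison only: 2636 ± 272 CPM in SOD1G93A against 1697 ± 214 in nTg (log2 fold change 0.64 ± 0.18, adjusted p = 0.0163), and 2278 ± 303 against 1925 ± 254 (log2 fold change 0.24 ± 0.16, adjusted p = 0.221). The first call was lost without SOD1G93A 2 or nTg 2 or 3 (adjusted p = 0.0583 to 0.0688), and the difference between the comparisons was not called. Dnajb9, the co-chaperone ERdj4 and a known Xbp1 target, went the other way: it was at 95.1 ± 20.8 CPM in SOD1G93A against 167 ± 6.71 in nTg (log2 fold change -0.82 ± 0.23, adjusted p = 0.0135). On the Clec7a-KO background it was at 59.8, 52.9, 66.9 and 66.1 CPM with the transgene and 96.0, 185, 134 and 98.7 without, with no overlap in either pair of groups (log2 fold change -1.07 ± 0.20, adjusted p = 6.09e-04).

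Of the 5 isomerases and lectin chaperones, 4 rose in each comparison and none fell. Calr, the soluble lectin chaperone, was at 1488, 1624 and 1526 CPM in SOD1G93A and 749, 678 and 665 in nTg. Calr was at 1422, 1849, 747 and 706 in SOD1G93A/Clec7a-KO and 723, 855, 673 and 400.1 in Clec7a-KO. The first groups are far apart, while SOD1G93A/Clec7a-KO 3 and 4 lie near the Clec7a-KO libraries and Clec7a-KO 4 below all others. Calr had a log2 fold change of 1.15 ± 0.34 and 0.83 ± 0.29 (adjusted p = 0.0170 and 0.0285). The calls of Calr were lost without nTg 2 or 3 (adjusted p = 0.0530 to 0.0544) and without SOD1G93A 1, SOD1G93A/Clec7a-KO 1 or 2 or Clec7a-KO 3 or 4 (adjusted p = 0.0504 to 0.177), the second log2 fold change being 0.46 without SOD1G93A/Clec7a-KO 2. Pdia3, the isomerase that works on the clients of Calr and Canx, was at 707 ± 59.2 CPM in SOD1G93A against 395 ± 15.8 in nTg (log2 fold change 0.84 ± 0.28, adjusted p = 0.0324), a call lost without SOD1G93A 1, 2 or 3 or nTg 1, 2 or 3 (adjusted p = 0.0530 to 0.0889). On the Clec7a-KO background it was at 662, 734, 1126 and 1326 CPM with the transgene and 444, 441, 410.1 and 792 without, where Clec7a-KO 4 overlaps the transgenic libraries (log2 fold change 0.88 ± 0.24, adjusted p = 0.00843). Pdia6, a further isomerase, was at 386, 470.3 and 427 CPM in SOD1G93A and 221, 249.98 and 218 in nTg, and at 449 ± 60.6 against 266 ± 37.1, with no overlap in either comparison. Pdia6 had a log2 fold change of 0.90 ± 0.16 and 0.75 ± 0.14 (adjusted p = 8.72e-04 and 6.51e-04). The membrane-bound lectin Canx, whose second direction turns without TMM, rose to 382 ± 9.80 from 245 ± 13.7 CPM and to 355 ± 26.9 from 283 ± 31.3 (log2 fold change 0.64 ± 0.14 and 0.33 ± 0.12, adjusted p = 0.00259 and 0.0353), the second call being lost without SOD1G93A 1, SOD1G93A/Clec7a-KO 1, 2, 3 or 4 or Clec7a-KO 1, 2 or 3 (adjusted p = 0.0557 to 0.128). Pdia4 was called in neither (log2 fold change 0.83 ± 0.39 and 0.81 ± 0.34, adjusted p = 0.113 and 0.0613) and was highest in SOD1G93A/Clec7a-KO 3 and 4 (183 and 219 CPM) and Clec7a-KO 4 (129.5), the libraries that stand apart.

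Of the 3 degradation factors, Sel1l and Edem1 rose in both comparisons. Sel1l, the scaffold of the ligase that draws misfolded proteins out, was at 69.2, 84.0 and 83.4 CPM in SOD1G93A and 43.9, 38.1 and 45.5 in nTg (log2 fold change 0.89 ± 0.15, adjusted p = 5.49e-04), and at 68.9 ± 12.4 against 48.8 ± 3.65 on the Clec7a-KO background (log2 fold change 0.50 ± 0.13, adjusted p = 0.00695; 0.0511 with a log2 fold change of 0.31 without SOD1G93A/Clec7a-KO 2). Neither pair of groups overlaps. Edem1, which marks misfolded glycoproteins for removal, rose to 179 ± 11.9 from 125 ± 5.97 CPM and to 188 ± 25.6 from 142 ± 14.9 (log2 fold change 0.52 ± 0.15 and 0.40 ± 0.13, adjusted p = 0.0135 and 0.0170), calls lost without SOD1G93A 2 (adjusted p = 0.0530) and without SOD1G93A/Clec7a-KO 3 or 4 or Clec7a-KO 1 (adjusted p = 0.0612 to 0.0976). Herpud1, a small membrane protein of the same machinery with CARE and ERSE-II in its promoter, was at 353 ± 39.9 CPM against 416 ± 42.3 (adjusted p = 0.448) and lower on the Clec7a-KO background, at 349.8 ± 67.3 against 506 ± 149 with overlapping groups (log2 fold change -0.53 ± 0.20, adjusted p = 0.0404). That call was lost without SOD1G93A 2 or 3, SOD1G93A/Clec7a-KO 1, nTg 1, 2 or 3 or Clec7a-KO 2 or 4 (adjusted p = 0.0526 to 0.132), with a log2 fold change of -0.34 without Clec7a-KO 4.

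**Figure D3:**
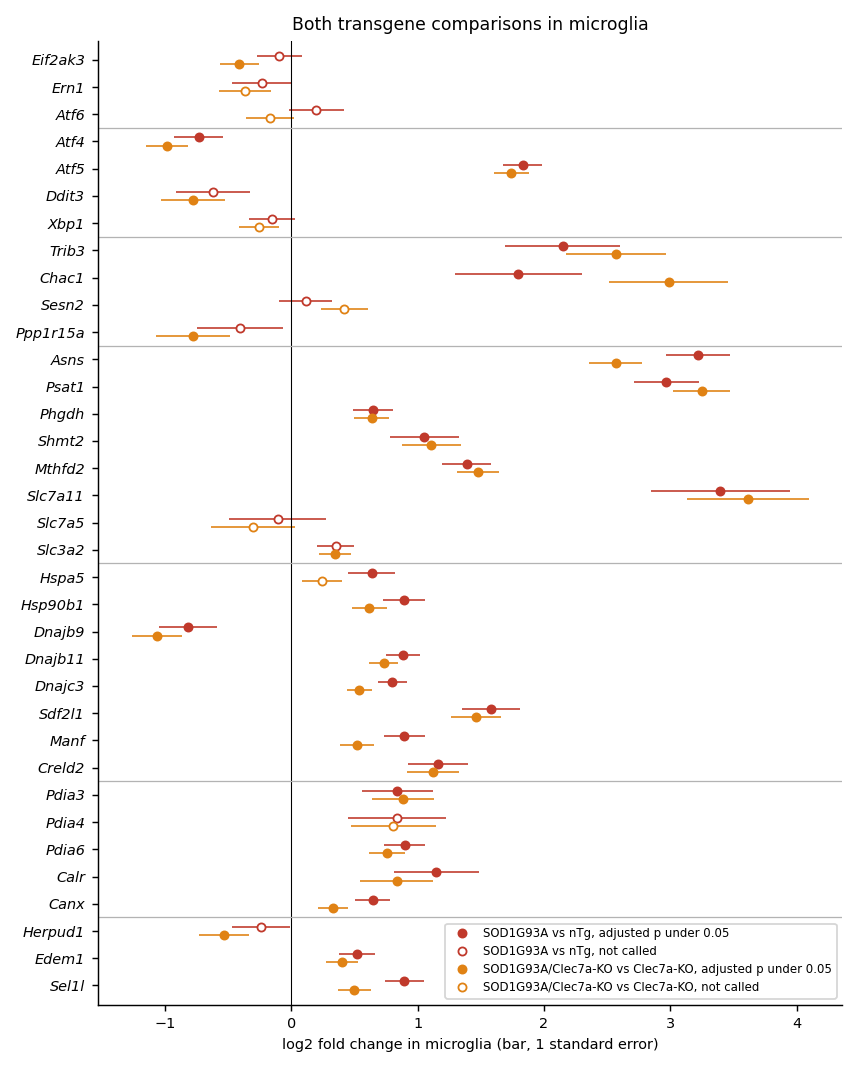
Log2 fold change of each member (rows, ordered by role) in microglia-like cells for SOD1G93A against nTg and for SOD1G93A/Clec7a-KO against Clec7a-KO, with a bar of 1 standard error, as the legend marks them. Values run from -1.07 for Dnajb9 to 3.61 for Slc7a11, both in the second comparison, and 21 members were called higher in both.

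The plot of both sets of fold changes pairs them gene by gene. The lower calls were Atf4 and Dnajb9 in both comparisons, and Eif2ak3, Ddit3, Ppp1r15a and Herpud1 in the second. Other values moved with the transgene in the same microglia. The 22 early response genes that warm dissociation induces summed to 37932 to 48703 CPM in nTg, 41904 to 59935 in Clec7a-KO, 25881 to 29299 in SOD1G93A and 25230.2 to 34286 in SOD1G93A/Clec7a-KO, and 9 of them were lower and 0 higher in the first comparison, 13 and 0 in the second. Their part in the lower calls of Atf4, Ddit3, Ppp1r15a and Herpud1 was not tested. The 8 markers of border-associated macrophages summed to 2.09 to 2.41 CPM in nTg and 44.9 to 84.1 in SOD1G93A, of which Ms4a7 gave 31.3 to 70.2 in SOD1G93A. Pf4 was at 0.0950 to 0.325 CPM in nTg against 5.48 to 8.93 in SOD1G93A and Folr2 at 0.570 to 1.11 against 3.07 to 7.33, while in SOD1G93A Cd163 was at 0 to 0.0418 and Lyve1 at 0 to 0.0234. The 8 markers of monocytes or dendritic cells summed to 9.18 to 21.9 and 162 to 207 CPM, of which Itgax, which reactive microglia also express, gave 159.8 to 204 in SOD1G93A, while Ccr2 was at 0.362 to 0.599 and Ly6c2 at 0.0234 to 0.0523. A microglial cell held a median of 7724 to 10527 UMIs in the nTg libraries and 8897 to 21896 in the SOD1G93A libraries. Over all barcodes of a library, the median mitochondrial share was 1.473 to 2.154% in SOD1G93A and 2.605 to 4.461% in nTg. It was 0.889 to 1.581% in SOD1G93A/Clec7a-KO and 1.898 to 4.601% in Clec7a-KO. Its part in the calls was not tested. The microglial clusters led by Lpl and Postn and by Gpnmb and Mmp12 each had 1 of these markers, Itgax and Ms4a7, and no microglial marker among their 10 leading genes; without both clusters, 22 members were called in the first comparison (20 higher and 2 lower) and 19 in the second (16 and 3). The cluster led by the X-inactivation genes Tsix and Xist came mainly from nTg 1, nTg 3 and Clec7a-KO 3: it held 74.0%, 1.67% and 71.9% of the microglia of nTg 1, 2 and 3 and 0.170%, 0.765%, 73.7% and 0.0920% of those of Clec7a-KO 1 to 4, against 0.0169 to 0.0257% in the SOD1G93A and 0 to 2.40% in the SOD1G93A/Clec7a-KO libraries. The groups of the first comparison were thus unbalanced in this cluster. With the Xist level as a covariate 18 (17 higher and 1 lower) members were called in the first comparison and 28 (23 higher and 5 lower) in the second. Sex entered no fit other than through this Xist level, and its part in the calls was not tested. Without the libraries numbered 13, 15 and 16, 27 members were called in each comparison (24 higher and 3 lower, and 20 and 7). Marker sums of other cell types also stood apart between SOD1G93A and nTg microglia. Oligodendrocyte precursor (25.6 to 53.9 and 12.8 to 17.1 CPM) and endothelial markers (135 to 165 and 76.2 to 125) were higher in SOD1G93A. Astrocyte (107 to 163 and 196 to 268), oligodendrocyte (67.1 to 108 and 137 to 171) and neuronal markers (3.25 to 7.33 and 13.2 to 22.3) were lower. Their part in the members' changes was not tested.

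Loss of Clec7a was not followed by a called change of any member in microglia, with or without the transgene. Of 35 members, 0 were called between SOD1G93A/Clec7a-KO and SOD1G93A (over all genes 0.0182%), 0 between Clec7a-KO and nTg (0.0304%) and 0 for the difference of these contrasts, which is also the difference between the transgene comparisons (0%), by edgeR and by DESeq2. At an unadjusted p under 0.05 stood 4, 2 and 0 members, against 1873, 423 and 343 of all 16460 genes. The members were Ern1, Shmt2, Dnajb9 and Dnajc3 with the transgene (lowest adjusted p = 0.436), and Sesn2 and Asns without (1). For the genes with the steepest transgene response the log2 fold change of SOD1G93A/Clec7a-KO over SOD1G93A was -0.02 for Asns (95% interval -0.42 to 0.38), 0.16 for Psat1 (-0.27 to 0.59) and -0.01 for Slc7a11 (-0.92 to 0.90). For Shmt2 it was 0.58 (0.09 to 1.07) and for Dnajb9 -0.63 (-1.05 to -0.22). Effects of Clec7a inside the first 3 intervals were not detectable with 3 and 4 libraries.

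Within microglia the members divided between clusters of cells, and the groups held these clusters in different shares. The cluster led by the cell division genes Mki67 and Top2a had the highest mean of 15 members, among them Psat1, Shmt2, Mthfd2, Hsp90b1, Sdf2l1, Creld2 and Pdia6, and 93.4% of its cells came from transgenic libraries. The cluster led by Gm45540 and Crybb1, which held 3.23%, 29.8% and 5.91% of the microglia of nTg 1, 2 and 3 and 5.85 to 44.1% in Clec7a-KO against 0.522 to 1.52% in SOD1G93A and 0.156 to 1.40% in SOD1G93A/Clec7a-KO libraries, had the highest mean of 9 members: Eif2ak3, Ern1, Atf4, Ddit3, Xbp1, Ppp1r15a, Slc3a2, Dnajb9 and Sel1l. Atf4 was at 463 ± 88.4 CPM there (mean ± SD over 11 libraries) and at 135 ± 22.6 (7 libraries) in the cluster led by Gpnmb and Mmp12, while Ddit3 was at 239.7 ± 62.9 and 55.5 ± 19.9. Asns ran the other way, at 23.5 ± 5.15 CPM in the Gpnmb and Mmp12 cluster and 1.89 ± 1.57 in the cluster led by Crybb1 and P2ry12. Trib3 (8.22 ± 2.18 CPM) and Atf5 also had their highest mean in the Gpnmb and Mmp12 cluster, which held 0 to 0.0828% of the microglia in nTg, 8.13 to 9.34% in SOD1G93A, 0 to 0.0565% in Clec7a-KO and 7.78 to 15.5% in SOD1G93A/Clec7a-KO libraries. Slc7a11 was highest in the cluster led by the cytokine genes Il12b and Ifnb1, at 339.9 ± 58.7 CPM against 4.26 ± 4.83 in the Gm45540 and Crybb1 cluster. The Il12b and Ifnb1 cluster held 3.84, 39.5 and 30.3% of the microglia of SOD1G93A 1 to 3. In SOD1G93A/Clec7a-KO 1 to 4 it held 1.41, 2.08, 19.3 and 31.5%. In the cluster led by Apoe and C1qa, with 98.8% of its cells from transgenic libraries, Slc7a11 was at 25.6 ± 13.8 CPM. The clusters were formed from the same counts, so these levels are a description with no test. A library entered a cluster mean only with at least 20 of its cells. The 7 libraries of the Gpnmb and Mmp12 cluster were all transgenic, while every control library entered the Gm45540 and Crybb1 cluster. Cluster and transgene therefore cannot be told apart in these means.

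**Figure D4:**
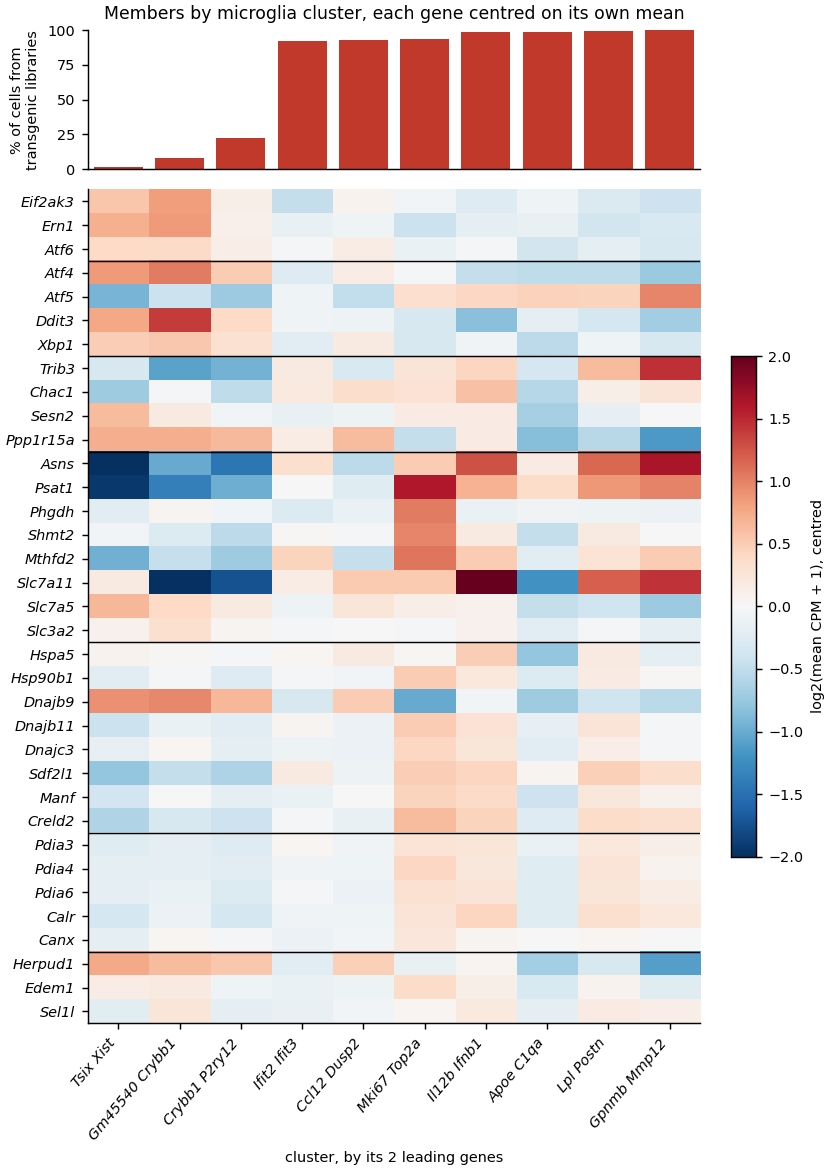
Level of each member (rows, ordered by role) in each of the 10 microglia-like clusters (columns, named by 2 leading genes and ordered by the share of cells from transgenic libraries, which the bars above give in percent), as log2 of mean CPM plus 1 centred on the gene's own mean. Atf4, Ddit3 and Dnajb9 are high in clusters at the left, Asns, Psat1 and Slc7a11 in clusters at the right.

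The map of members by cluster has Atf4, Ddit3 and Dnajb9 highest in clusters mostly of control libraries, and Asns, Psat1 and Slc7a11 in clusters mostly of transgenic ones. The factor Atf5 is highest in the Gpnmb and Mmp12 cluster, and the supply genes Slc3a2 and Slc7a5 in the Gm45540 and Crybb1 and the Tsix and Xist clusters. Only the Crybb1 and P2ry12 cluster (8902 cells) had at least 20 cells in every library, and it held 15.8 to 63.8% of the microglia in nTg, 17.1 to 76.7% in Clec7a-KO, 1.80 to 13.7% in SOD1G93A and 2.57 to 9.84% in SOD1G93A/Clec7a-KO libraries. Within it 1 member of 33 tested was called in SOD1G93A against nTg (over all genes 0.673%) and 3 in SOD1G93A/Clec7a-KO against Clec7a-KO (4.44%), in place of 24 and 28 over all microglia. Psat1 was called in both: it was at 30.1, 21.7 and 41.3 CPM in SOD1G93A and 15.4, 5.10 and 13.3 in nTg. Psat1 was at 27.9, 36.8, 20.1 and 27.4 in SOD1G93A/Clec7a-KO and 8.89, 6.37, 9.74 and 8.15 in Clec7a-KO. The groups do not overlap (log2 fold change 1.61 and 1.91, adjusted p = 0.0395 and 0.00121). Atf4 and Dnajb9 were lower in the second comparison (log2 fold change -0.74 and -1.20, adjusted p = 0.0458 and 0.00623). The median log2 fold change of the 33 members in this cluster was 0.19 and 0.12, with 22 and 19 above 0. In the first comparison the log2 fold change of Dnajb9 was -0.91 (adjusted p = 0.136), against -0.82 ± 0.23 over all microglia. Creld2, called higher in all microglia in the first comparison, had a log2 fold change of -0.03 in this cluster. Manf (-0.02), Canx (-0.03) and Edem1 (-0.15), called higher in all microglia in the second, were below 0 here. The cluster holds fewer cells and UMIs than all microglia, and its cells were grouped by the same counts.

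Of 99 other genes of these pathways, 94 passed the filter in microglia, and 48 rose and 5 fell in SOD1G93A, 51 and 11 on the Clec7a-KO background. Over all genes 20.2% rose and 13.4% fell in the first comparison, and 26.0% and 21.2% in the second. Other chaperones and oxidases rose in 13 and 14 of 18 cases, and genes of degradation and translocation in 16 and 17 of 24, with none lower in the latter. The aminoacyl tRNA synthetases, many of them Atf4 targets, rose in 6 and 7 of 12 cases with none lower. Other Atf4 targets split into 6 higher and 4 lower, and 6 and 7, of 19 tested. Of 14 genes of secretory traffic and cleavage, 4 rose in the first comparison, and 5 rose and 2 fell in the second. Of 7 genes around eIF2alpha (Eif2ak1, Eif2ak2, Eif2ak4, Eif2s1, Ppp1r15b, Eif2b5 and Nck1), 3 rose in the first, and 2 rose and 1 fell in the second. The cytokine Gdf15 was at 69.5 ± 14.5 CPM in SOD1G93A against 12.3 ± 9.16 in nTg, and at 43.1 ± 13.5 against 11.4 ± 6.56. Gdf15 had a log2 fold change of 2.48 ± 0.59 and 1.91 ± 0.50. The oxidase Ero1l, which reloads the isomerases, rose by 1.83 ± 0.19 and 1.59 ± 0.16, the membrane-bound factor Creb3l1 by 1.74 ± 0.37 and 1.83 ± 0.32, and the nucleotide exchange factor Sil1 of Hspa5 by 1.37 ± 0.15 and 1.38 ± 0.13 on the log2 scale, and the translation repressor Eif4ebp1 was named in the second (1.40 ± 0.15). The growth inhibitor Ddit4 was lower (log2 fold change -1.65 ± 0.45 and -1.56 ± 0.39), as were the amino acid carrier Slc38a2 (-0.83 ± 0.22 and -0.88 ± 0.19) and the stress factor Nupr1 (-0.73 ± 0.23 and -0.67 ± 0.20), with Atf3 in the first (-0.67 ± 0.19) and Crebrf in the second (-0.60 ± 0.16).

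In astrocyte-like cells fewer members were called, and Slc7a11 fell where it had risen in microglia. Atf5, Asns, Hspa5, Sdf2l1, Manf, Pdia3, Pdia6 and Edem1 were called higher, and Dnajb9 lower, in SOD1G93A in both classes. Of 33 members tested, 11 rose and 2 fell in SOD1G93A against nTg (over all genes 17.9% and 17.9%), and 5 rose and 3 fell in SOD1G93A/Clec7a-KO against Clec7a-KO (17.1% and 17.9%). The members' median log2 fold change was 0.42 and 0.12, against -0.07 and -0.10 over all genes. Slc7a11 was at 60.0, 62.2 and 55.0 CPM in SOD1G93A and 133, 143 and 126 in nTg. Slc7a11 was at 46.6, 46.3, 69.9 and 44.7 in SOD1G93A/Clec7a-KO and 102, 127, 114 and 134 in Clec7a-KO. All transgenic libraries lay below all others (log2 fold change -1.18 ± 0.17 and -1.20 ± 0.17, adjusted p = 1.39e-04 and 7.28e-05), where microglia had risen without overlap. Ddit3 was at 141, 70.4 and 91.3 CPM in SOD1G93A and 31.8, 32.1 and 26.5 in nTg. Ddit3 was at 81.8, 103, 44.9 and 25.5 in SOD1G93A/Clec7a-KO and 37.6, 35.3, 29.8 and 29.9 in Clec7a-KO. The first groups are apart and the second overlap through SOD1G93A/Clec7a-KO 4, which holds 34 astrocyte-like cells. Ddit3 had a log2 fold change of 1.74 ± 0.29 and 1.12 ± 0.27 (adjusted p = 3.6e-04 and 0.00485). Atf5 was at 64.4, 39.3 and 34.7 CPM against 15.3, 17.9 and 17.7, and at 32.5, 30.6, 21.6 and 38.3 against 23.7, 16.1, 19.2 and 16.7 on the Clec7a-KO background, where groups overlap (log2 fold change 1.42 ± 0.24 and 0.62 ± 0.23, adjusted p = 3.12e-04 and 0.0463). The second call of Atf5 was lost without SOD1G93A/Clec7a-KO 1, 2 or 4 or Clec7a-KO 2, 3 or 4 (adjusted p = 0.0559 to 0.125). Atf4 mRNA was called in neither comparison (log2 fold change 0.31 ± 0.20 and 0.03 ± 0.19).

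Ppp1r15a, Sdf2l1 and Edem1, which among all classes have their highest mean in microglia, rose in both comparisons too. Ppp1r15a was at 158, 74.8 and 30.3 CPM in SOD1G93A and 18.2, 13.03 and 15.6 in nTg, and at 80.6, 101, 79.9 and 102 against 56.8, 16.1, 21.9 and 46.6. Ppp1r15a had a log2 fold change of 2.45 ± 0.49 and 1.31 ± 0.42 (adjusted p = 0.00114 and 0.0244). The second call of Ppp1r15a was lost without SOD1G93A/Clec7a-KO 2 or Clec7a-KO 2 or 3 (adjusted p = 0.0609 to 0.0717). Sdf2l1 was at 103, 68.9 and 39.9 CPM against 11.5, 13.3 and 13.96, and at 71.5, 88.5, 69.9 and 38.3 against 23.6, 13.1, 19.2 and 26.4. Sdf2l1 had a log2 fold change of 2.41 ± 0.31 and 1.82 ± 0.28. Edem1 was at 69.6, 48.2 and 19.9 CPM against 11.0, 14.5 and 7.10, and at 56.0, 52.1, 26.6 and 25.5 against 20.7, 19.2, 14.1 and 14.9. Edem1 had a log2 fold change of 2.05 ± 0.39 and 1.36 ± 0.35. In these 3 genes no control library reached a transgenic one of its own comparison, and the lowest SOD1G93A value was always that of library 3. Of all 13047 genes tested, 2978 were higher and 3716 lower without overlap in the first comparison, and 1482 and 1978 in the second. Lack of overlap therefore marks nothing particular to these genes. In SOD1G93A/Clec7a-KO 4, with 34 astrocyte-like cells, 3 UMIs are 19.2 CPM, so its values lie near the floor. The 12 microglial markers moved in the same way in astrocyte-like cells: set against their level in the microglia of the same library, microglial RNA made up 0.785 to 1.56% of the astrocyte-like UMIs in nTg, 1.85 to 6.45% in Clec7a-KO, 5.08 to 35.1% in SOD1G93A and 12.5 to 34.5% in SOD1G93A/Clec7a-KO. That much microglial RNA would by itself give 104% of the Ppp1r15a level in SOD1G93A and 108% in SOD1G93A/Clec7a-KO, 70.1% and 95.8% of Sdf2l1, 62.9% and 86.9% of Edem1 and 44.0% and 59.8% of Hspa5, but 15.5% and 24.7% of Ddit3 and 12.7% and 22.4% of Atf5. For Slc7a11 it would give 44.8% and 56.1% of a level that fell.

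Marker sums of other cell types also stood apart between SOD1G93A and nTg in astrocyte-like cells, and those of mural, ependymal and oligodendrocyte cells and of neutrophils overlapped on the Clec7a-KO background. The 8 mural markers summed to 74.0 to 118 CPM in nTg and 175 to 347 in SOD1G93A, and 48.2 to 189 in Clec7a-KO and 141 to 290.5 in SOD1G93A/Clec7a-KO. The 9 ependymal markers were at 175 to 207 CPM in nTg and 306 to 417 in SOD1G93A, and 146 to 208 in Clec7a-KO and 173 to 448 in SOD1G93A/Clec7a-KO. The 7 markers of oligodendrocyte precursors were at 1068 to 1352 CPM in nTg and 628 to 862 in SOD1G93A, and 827 to 1203 in Clec7a-KO and 596 to 726 in SOD1G93A/Clec7a-KO. The 9 neuronal markers were at 155 to 173 CPM in nTg and 67.4 to 95.4 in SOD1G93A, and 149.6 to 291 in Clec7a-KO and 45.1 to 89.7 in SOD1G93A/Clec7a-KO. Sums of the 8 oligodendrocyte and the 7 fibroblast markers were lower in every SOD1G93A than in every nTg library, and those of the 6 neutrophil and 8 border-associated macrophage markers higher. The astrocytes' own 9 markers summed to 18366 to 22164 CPM in nTg and 15835 to 21201 in SOD1G93A, and the part of these lists in the members' changes was not tested.

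With the microglial RNA above subtracted, an alternative added after the data were seen, 7 members were called higher in SOD1G93A against nTg: Atf5 (log2 fold change 1.57), Ddit3 (1.94), Sesn2 (1.52), Asns (1.33), Hspa5 (0.78), Manf (0.60) and Edem1 (1.20). Slc7a11 (-1.76) and Herpud1 (-0.67) were lower. Over all genes in this fit 13.6% were called higher and 12.9% lower. On the Clec7a-KO background 1 stayed higher, Ddit3 (1.37), and 4 were lower, Xbp1 (-0.72), Slc7a11 (-1.85), Slc3a2 (-0.46) and Dnajb9 (-0.58), where 12.8% of all genes were called higher and 10.6% lower. Of the calls lost in the first comparison, Dnajb9 had a log2 fold change of -0.51 (adjusted p = 0.0552), Sdf2l1 of 1.18 (adjusted p = 0.0938), Pdia3 of 0.30 (adjusted p = 0.293) and Pdia6 of 0.46 (adjusted p = 0.160). Of those lost in the second, Atf5 had one of 0.58 (adjusted p = 0.137), while Sdf2l1 and Edem1 turned to -0.77 and -0.17. Ppp1r15a lost both calls, and since microglial RNA alone would give 83.5% of its level in nTg, 101% in Clec7a-KO and over all of it in the transgenic groups, no fold change of what is left is read. Ddit3 was called higher in both comparisons with and without the subtraction. Its fold changes were larger with the subtraction than without it, so this is no check. Slc7a11 was called lower both ways, but this is no check, since the subtraction by itself lowers its fold change. For Slc7a11 it takes a mean of 26.3 and 28.6 CPM from SOD1G93A and SOD1G93A/Clec7a-KO. From nTg and Clec7a-KO it takes 0.272 and 0.548 CPM. Every other member called lower here also lost more CPM in the transgenic group than in its control. The CPM lost does not give the direction in which a fold change moved. On the Clec7a-KO background the fold changes of Slc3a2 and Dnajb9 were smaller in size with the subtraction than without it.

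Of the remaining astrocyte calls without subtraction, in SOD1G93A the amino acid enzyme Asns rose by 1.40 ± 0.42 on the log2 scale, the growth restraint Sesn2 by 1.50 ± 0.44, the chaperone Hspa5 by 1.25 ± 0.30, Manf by 0.68 ± 0.19, Pdia6 by 0.58 ± 0.20 and Pdia3 by 0.46 ± 0.17. The co-chaperone Dnajb9 was lower in both comparisons (94.1 ± 7.10 against 141 ± 20.9 CPM, and 69.4 ± 18.3 against 119.7 ± 17.8, log2 fold change -0.58 ± 0.19 and -0.73 ± 0.18), as it was in microglia, and Slc3a2 in the second (-0.56 ± 0.16). In SOD1G93A against nTg the call of Sesn2 was lost without SOD1G93A 3 or nTg 2 or 3 (adjusted p = 0.0512 to 0.126), that of Asns without SOD1G93A 3 or nTg 3 (adjusted p = 0.0621 to 0.154), with a log2 fold change of 0.91 without SOD1G93A 3, and that of Pdia3 without SOD1G93A 1, 2 or 3 or nTg 2 or 3 (adjusted p = 0.0540 to 0.121). That of Pdia6 was lost without SOD1G93A 1 or 2 or nTg 1, 2 or 3 (adjusted p = 0.0551 to 0.0904) and that of Dnajb9 without SOD1G93A 1, 2 or 3, nTg 2 or 3 or Clec7a-KO 2 (adjusted p = 0.0501 to 0.151). On the Clec7a-KO background that of Slc3a2 was lost without SOD1G93A/Clec7a-KO 1 or 2 or Clec7a-KO 2 (adjusted p = 0.0538 to 0.0569). The counts of 13 and 8 calls went down to 8 without nTg 3, and to 5 without SOD1G93A/Clec7a-KO 2 or Clec7a-KO 2. Trib3 and Chac1 did not pass the filter, and the other 19 of the 35 members were called in neither comparison. The early response genes of dissociation rose here, 17 and 12 of 22 being higher, from 2058 to 2824 CPM in nTg to 3738 to 9991 in SOD1G93A and from 2909 to 4754 in Clec7a-KO to 4258 to 8815 in SOD1G93A/Clec7a-KO, and their part in the calls was not tested. Microglia held 25881 to 29299 CPM of these genes in SOD1G93A and 25230 to 34286 in SOD1G93A/Clec7a-KO. Microglial RNA made up 5.08 to 35.1% and 12.5 to 34.5% of the astrocyte-like UMIs in these groups. Its part in this rise was not tested, so no dissociation response of astrocytes is read from it. Between the Clec7a groups 0 members were called in astrocyte-like cells, by edgeR and by DESeq2 (over all genes 0.00766% with the transgene and 0% without). At an unadjusted p under 0.05 stood 1 and 2 members, against 631 and 428 of all 13047 genes.

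**Figure D5:**
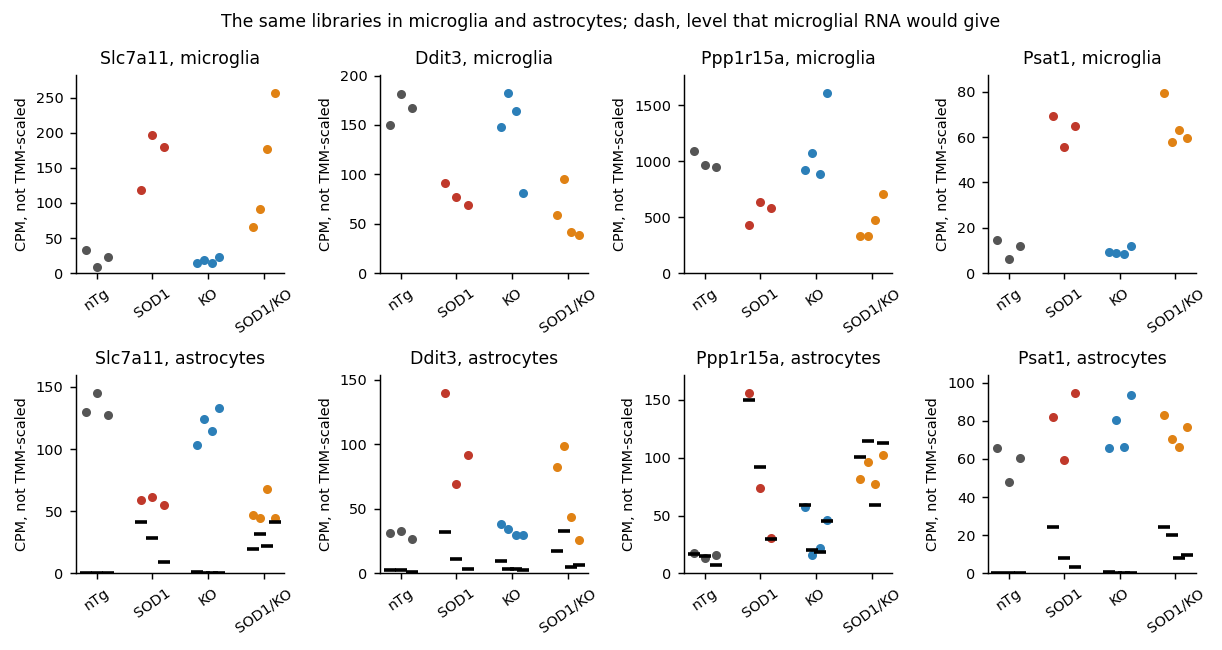
Level of Slc7a11, Ddit3, Ppp1r15a and Psat1 in microglia-like cells (upper row) and astrocyte-like cells (lower row) of the same libraries, 1 point per library, in CPM of the summed UMIs without TMM's scaling; a dash gives the level that microglial RNA in the astrocyte-like cells would produce. Slc7a11 is higher with the transgene in microglia and lower in astrocytes, and the dashes lie at or near the points for Ppp1r15a.

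The plot of 4 genes in both classes shows the opposite steps of Slc7a11 and Ddit3. A test of the difference itself, added after the data were seen, took each library's microglia minus astrocyte difference of log2(CPM + 2) into limma. The transgene's change differed between the classes for 8 of 33 members in SOD1G93A against nTg (over all genes 20.2%) and for 16 in SOD1G93A/Clec7a-KO against Clec7a-KO (31.3%), and all 8 were among the 16. Slc7a11 had the widest difference, 4.52 ± 0.50 and 4.44 ± 0.43 on the log2 scale (adjusted p = 4.4e-05 and 8.85e-06), toward microglia. Psat1 (2.36 ± 0.19 and 3.00 ± 0.17), Slc3a2 (0.80 ± 0.18 and 0.92 ± 0.15), Shmt2 (0.83 ± 0.24 and 0.75 ± 0.21) and Sel1l (0.90 ± 0.20 and 0.89 ± 0.17) also had higher fold changes in microglia than in astrocyte-like cells. Ddit3 (-2.24 ± 0.32 and -1.54 ± 0.27, adjusted p = 3.72e-04 and 0.00110), Ppp1r15a (-2.51 ± 0.72 and -2.27 ± 0.63) and Atf4 (-1.01 ± 0.29 and -0.97 ± 0.25) had lower fold changes in microglia than in astrocyte-like cells, where Atf4 itself was called in neither comparison. Microglial RNA alone would give 83.5% of the astrocyte-like Ppp1r15a level in nTg and 101% in Clec7a-KO. In SOD1G93A and SOD1G93A/Clec7a-KO it would give 104% and 108%, so no astrocyte change is read from the Ppp1r15a difference. With microglial RNA subtracted from the astrocyte-like cells, Ddit3 was called in both comparisons. The subtraction raised its fold changes in astrocyte-like cells, so this is no check. Slc7a11 was called too, but the subtraction by itself widens its difference, so this is no check. The first count was 5 without nTg 2 or nTg 3. In that comparison the call of Atf4 was lost without SOD1G93A 1 or nTg 1, 2 or 3 (adjusted p = 0.0505 to 0.102), that of Ppp1r15a without SOD1G93A 1 or 2 or nTg 1, 2 or 3 (adjusted p = 0.0590 to 0.0888) and that of Shmt2 without SOD1G93A 1 or nTg 2 or 3 (adjusted p = 0.0596 to 0.112). In the second, that of Phgdh was lost without Clec7a-KO 2 (adjusted p = 0.0573) and that of Hsp90b1 without SOD1G93A 2 or 3, SOD1G93A/Clec7a-KO 3 or 4, nTg 1, 2 or 3 or Clec7a-KO 1, 2, 3 or 4 (adjusted p = 0.0530 to 0.109).

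Of the other pathway genes, 92 were tested in astrocyte-like cells, with 21 higher and 5 lower in SOD1G93A and 22 and 7 on the Clec7a-KO background (over all genes 17.9% and 17.9%, and 17.1% and 17.9%). The steepest was Nupr1, a stress-induced chromatin factor, at 897, 293 and 581 CPM in SOD1G93A and 4.62, 5.76 and 1.42 in nTg. Nupr1 was at 529, 318, 419 and 166 in SOD1G93A/Clec7a-KO and 13.1, 2.52, 4.31 and 16.7 in Clec7a-KO. Every transgenic library was far above every other one (log2 fold change 7.25 ± 0.66 and 5.35 ± 0.53), and microglial RNA would give 2.41% and 5.36% of its level in the transgenic groups. In microglia the same gene was lower, as given above. Gdf15 rose by 5.98 ± 0.89 and 3.57 ± 0.68 on the log2 scale, where microglial RNA would give 25.5% and 28.2% of its level, Eif4ebp1 by 3.87 ± 0.44 and 2.74 ± 0.40 (21.7% and 49.6%) and Cebpb by 3.59 ± 0.45 and 2.70 ± 0.38 (68.4% and 67.1%). In astrocyte-like cells 3 UMIs are 0.512 to 19.2 CPM of a library. Where control levels are that low, the size of such steep folds depends on the test's prior. The glycine carrier Slc6a9 (-1.58 ± 0.23 and -1.13 ± 0.21) and Ddit4 (-0.82 ± 0.27 and -0.70 ± 0.25) were lower in both, Fkbp11 (-1.13 ± 0.35) and Kdelr2 (-0.53 ± 0.20) in the first, and Cth (-2.06 ± 0.43) and Sec23b (-0.73 ± 0.28) in the second.

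In the other classes compared hardly any member passed the test. In endothelial-like cells, where Slc7a5 and Slc3a2 are highest, 0 of 34 members were called in SOD1G93A against nTg (over all genes 1.25%) and 0 in SOD1G93A/Clec7a-KO against Clec7a-KO (1.06%), by edgeR and by DESeq2, with 3 and 4 at an unadjusted p under 0.05, against 856 and 1369 of all 13149 genes. There Slc7a5 had a log2 fold change of 0.21 ± 0.27 and -0.12 ± 0.23 and Slc3a2 of 0.25 ± 0.15 and 0.22 ± 0.13. In ependymal-like cells 0 of 33 were called (0.960% and 1.28% over all genes), by both tools, with 1 and 3 at an unadjusted p under 0.05, against 1128 and 2234 of all 15311 genes. The leading member of ependymal-like cells, Dnajc3, had a log2 fold change of 0.17 ± 0.17 and -0.11 ± 0.15. In oligodendrocyte precursor-like cells, a class added to the tests after the data were seen, 2 of 33 members stood at an unadjusted p under 0.05 in the first comparison, against 1754 of all 13240 genes. There 0 were called in the first comparison (1.54% over all genes, 0 members by DESeq2) and 2 in the second (3.81%). These were Shmt2, at 24.3, 26.9, 37.1 and 43.9 CPM in SOD1G93A/Clec7a-KO and 13.99, 18.1, 15.5 and 25.1 in Clec7a-KO (log2 fold change 0.83 ± 0.22, adjusted p = 0.0477), and Dnajb9, at 73.0, 41.9, 56.7 and 62.1 and 83.4, 99.4, 112 and 81.7 (log2 fold change -0.67 ± 0.18, adjusted p = 0.0486). For Shmt2 Clec7a-KO 4 lies above SOD1G93A/Clec7a-KO 1, and for Dnajb9 the groups do not overlap, as for 563 of all 13240 genes in that direction. By the same marker ratio, microglial RNA made up 0.362 to 5.30% of the UMIs of these cells. Shmt2 lost its call without SOD1G93A 1, 2 or 3, SOD1G93A/Clec7a-KO 2, 3 or 4, nTg 1, 2 or 3 or Clec7a-KO 1, 2 or 3 (adjusted p = 0.0523 to 0.144) and Dnajb9 without SOD1G93A 2 or 3, SOD1G93A/Clec7a-KO 2, 3 or 4, nTg 1, 2 or 3 or Clec7a-KO 1, 2 or 3 (adjusted p = 0.0535 to 0.151), so that the count was 0 to 2 when 1 library was left out. In mural-like cells, which were also added after the data were seen and where Atf5 has its highest mean, 23 members passed the filter and 0 were called in either comparison (0.0941% and 0.565% over all genes), by edgeR and by DESeq2, with 1 and 1 at an unadjusted p under 0.05, against 369 and 543 of all 7438 genes. There Atf5 had a log2 fold change of 0.00 ± 0.47 and -0.34 ± 0.47.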

How the data were processed

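Single-cell 3′ RNA of 14 libraries was given as whole UMI counts per gene and barcode in matrices that the authors deposited; the submitters' processing notes name Cell Ranger, Seurat, DESeq2 and the build mm10, and the matrix header gives software version 3.0.2. The aligner's settings, annotation and cell calling are not given in the sources used here. The 35 members and all gene lists were chosen with earlier results of these data known. Barcodes with under 500 genes, under 1000 UMIs or over 15% mitochondrial counts (7127 for depth and 4963 for mitochondrial share) and 7577 Scrublet doublets were removed. With scanpy 1.11.5, 2000 variable genes, 30 components and 15 neighbours, Leiden clusters at resolution 1.0 were named from marker lists; a name needed 3 detected markers and a mean log2 fold of 2. Clusters whose markers of another class also passed a log2 fold of 5, or that had at least 2 more markers of another class than of their own among their 10 leading genes by 1 of 2 rankings (against all other cells, or against the lower quartile of clusters), or more by both, stayed unnamed (5 clusters, 7162 cells), and these thresholds were set after the data were seen; 2 microglial clusters (11630 cells) with 1 more such marker by 1 ranking were kept. Of 10 microglial clusters, 6 had no microglial marker among their 10 leading genes against all other cells. UMIs were summed per library and class, in which microglia held 10525725 to 95611481 and astrocyte-like cells 156154 to 5864436, and a class was tested where every library had 20 cells. The test was edgeR 4.0.16 in R 4.3.3 (quasi-likelihood, TMM, filterByExpr, 1 term per group over 14 libraries) with Benjamini-Hochberg adjustment over all genes tested, called under 0.05; CPM by library and the sums of dissociation genes are on TMM's scale, and class and cluster means and sums of cell type markers are plain. Standard errors of edgeR's fold changes were computed as the log2 fold change over the square root of the F statistic. The 95% intervals were built from them by the normal approximation. Classes were compared with limma 3.58.1, and DESeq2 1.42.0 was an alternative beside other filters, scalings, covariates, clusterings and left-out libraries. The edgeR and limma steps were tested on simulated data. In microglia each called member is named, with the 12 largest fold changes at a mean of 5 CPM or more by library; elsewhere up to 6 by library, and up to 4 other pathway genes per direction. Levels by class and the changes of the sensors and transcription factors are given whatever the call.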

Additional observations from a re-analysis of the deposited data

Results flagged for a closer look

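In microglia 8 of 70 sets of 4 libraries held 1 library far from the other 3. The rule flags about 1 in 20 sets of independent normal values. The share over all genes was not computed, so the count is not read as a result about these members. Clec7a-KO 4, which stood apart on the first component given above, gave 4 of the 8 flagged sets, all high. Psat1 was at 11.7 CPM against 7.65 in the nearest library of the group, Slc7a5 at 50.7 against 20.6, Pdia3 at 792 against 444 and Pdia4 at 129.5 against 67.3. SOD1G93A/Clec7a-KO 1 was low for Trib3 (3.42 against 4.71 CPM) and Mthfd2 (48.5 against 61.9). SOD1G93A/Clec7a-KO 2 was high for Phgdh (132 against 111 CPM), and SOD1G93A/Clec7a-KO 3 was low for Canx (314 against 364).

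The transgene's change differed between microglia and astrocyte-like cells, by limma's test of the difference, for 8 members in SOD1G93A against nTg and for 16 in SOD1G93A/Clec7a-KO against Clec7a-KO. As microglia minus astrocyte on the log2 scale, the differences called in both comparisons were 4.52 and 4.44 for Slc7a11, 2.36 and 3.00 for Psat1, 0.90 and 0.89 for Sel1l, 0.80 and 0.92 for Slc3a2, 0.83 and 0.75 for Shmt2, -2.24 and -1.54 for Ddit3, -2.51 and -2.27 for Ppp1r15a, and -1.01 and -0.97 for Atf4. Those called in the second alone were 1.89 for Asns, 1.55 for Mthfd2, 0.99 for Creld2, 0.95 for Dnajc3, 0.94 for Atf5, 0.80 for Phgdh, 0.65 for Dnajb11 and 0.53 for Hsp90b1. Microglial RNA alone would give 104% and 108% of the astrocyte-like Ppp1r15a level in SOD1G93A and SOD1G93A/Clec7a-KO, so no astrocyte change is read from its difference. In the first comparison the calls of Ppp1r15a, Atf4 and Shmt2 were lost without single libraries, as given above. For Slc7a11 all 7 transgenic libraries were below the control libraries of their comparison in astrocyte-like cells and above them in microglia.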

How the results depend on the processing

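The first number is for SOD1G93A against nTg and the second for SOD1G93A/Clec7a-KO against Clec7a-KO. In microglia the 24 and 28 called members became 24 and 29 with DESeq2, 23 and 25 without the filter, 26 and 22 with only the groups compared, and 24 and 28 with coarser clustering, but 1 and 3 in the cluster that every library holds, which has fewer cells. Leaving out 1 library gave 19 to 25 and 22 to 26 in microglia, 8 to 17 and 5 to 11 in astrocyte-like cells, 0 to 2 for the second comparison in oligodendrocyte precursor-like cells, and 5 to 11 and 14 to 17 for the difference of the classes. Astrocyte-like cells gave 8 in the first comparison with the Xist level as a covariate and 20 without libraries 13, 15 and 16, which also took the difference of the classes to 14; subtracting microglial RNA gave 5 in the second. Without the filter 1 member was called in ependymal-like cells in the first comparison and 1 in astrocyte-like cells between Clec7a-KO and nTg. In oligodendrocyte precursor-like cells library number as a covariate gave 1 and 4, no TMM 1 in the second, and only the groups compared, the Xist covariate or dropping libraries 13, 15 and 16 gave 0. Signs turned in the cluster held by every library for Creld2 in the first comparison (-0.0258) and for Manf (-0.021), Canx (-0.0271) and Edem1 (-0.15) in the second. Without TMM they turned in the second for Slc3a2 (-0.18), Canx (-0.18), Edem1 (-0.12) and Sel1l (-0.0094). With subtraction in astrocyte-like cells they turned in the second for Sdf2l1 (-0.77) and Edem1 (-0.17). The cause of the turned signs was not tested. For Ppp1r15a the subtraction gave -0.22 in the first, which is not read as a turned sign. Microglial RNA alone would give 83.5% of its astrocyte-like level in nTg and 104% in SOD1G93A. The deviations of same-numbered libraries had correlations of -0.18 to 0.39 (mean 0.09, over 0.1 in 9 of 19 pairs). Libraries with other numbers had -0.50 to 0.50 (mean -0.03, over 0.1 in 13 of 54 pairs), a smaller share. The main fit did not pair libraries by number. With replicate number as a block the fit gave 26 and 28 in microglia, 13 and 8 in astrocyte-like cells and 0 and 2 in oligodendrocyte precursor-like cells. Depth limits the astrocyte sums, where 3 UMIs are up to 19.2 CPM in the smallest library.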
